A study of Homo sapiens with 71 samples.

Results

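The genes described here are 42 genes of DNA replication and S phase, read across HepG2 cells exposed to surface water from 16 sites or to purified water. They were chosen by symbol, with earlier results of these data known. Of the 42, 37 reached the level required for use, a mean of at least 1 CPM (counts per 1000000 counts of a library) over the 8 purified water libraries. Those 37 are among 6947 features that passed a filter on low counts, and the deposited table holds 31012 complete entries. HepG2 is a human hepatoma cell line. Cells of combined flasks were seeded into dishes and precultured for 72 hours. They were then exposed for 48 hours to medium made with 75% filtered water of a site, or with purified water in the controls, both with serum and antibiotics. Each site has 4 libraries, except MIWI with 3, and the controls have 8 of the 16 control dishes that the growth protocol describes. Site codes are given as in the labels. The dishes came from the same pooled cells, so p-values measure the spread between dishes of 1 culture.

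Before a cell can copy its DNA, origins are licensed in G1: the origin recognition complex, CDC6 and CDT1 load the ring of MCM2 to MCM7 onto chromatin. At the start of S phase the kinase CDC7, MCM10, CDC45 and the GINS complex (GINS1 to GINS4) turn the ring into a working helicase, and primase and the polymerases follow behind it. Many of these genes are transcribed in a wave at the G1 to S transition under E2F factors, so their RNA is commonly read as a sign of cells entering or passing S phase. In bulk RNA, fewer cells in S phase and less RNA per S phase cell cannot be told apart.

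Depth was 8182773 to 14520089 counts in the controls and 2912473 to 9892793 in the site libraries, except for VROH 2, which held 8840 counts. VROH 2, CRMI 1 and SRMI 3 stood apart from the other libraries of their sites, with log2 deviations from the group of 3.03, 1.88 and 1.19 (SD over 3279 features). Results are therefore also given without these 3 libraries. All 15 hepatocyte and hepatoma markers were at 1 CPM or more in the controls, in LRMN and in CRMI, and the defining markers PTPRC and CD163 (immune), KDR (endothelial), COL3A1 (fibroblast) and KRT14 (squamous) were at 0 in the controls.

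Of the 5 genes that were not used, FEN1, the flap endonuclease of the lagging strand, was listed at 0 counts in all 71 libraries. In the controls 3 counts would be 0.0372 CPM. Only 12425 of the 31012 entries held any count, so the 0 does not show whether FEN1 RNA was absent or not measured. The licensing subunit ORC1 (0.437 CPM in the controls), the polymerase epsilon subunit POLE (0.585) and the transcription factors E2F1 (0.108) and E2F2 (0.143) lay below 1 CPM. The genes just inside the limit were ORC6 at 1.13 CPM, POLA1 at 1.43 CPM and LIG1 at 1.46 CPM, and these carry few counts per library. Probe yields differ between genes, so levels are compared between groups within a gene and not between genes.

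Because many of these genes share E2F control, the 250 bases before their RefSeq starts (GRCh38.p14) were searched on both strands for the E2F letters TTTGGCGC, TTTCGCGC, TTTCCCGC and TTTGCCGC. Windows were found for 35 of the 42 genes, 47 windows in all. The letters occurred in 16 of the 47 windows (34.0%), against 2.79% of all 35116 windows of this length. The letters CCAAT, searched separately and allowed to overlap, occurred in 25 of the 47 windows (53.2%), against 32.0% of all windows. Below are 4 windows of genes that differed between sites in the results that follow. They were picked from the windows that hold the E2F letters, so their matches were fixed by that choice. They are given 5′ to 3′ on the gene's strand with the E2F letters or their reverse complement in capitals. HELLS lies at chr10:94545538-94545787 on the plus strand, with matches that start 76 and 8 bases before the gene start. GINS2 lies at chr16:85688955-85689204 on the minus strand, with a match 31 bases before it. POLA2 lies at chr11:65261712-65261961 on the plus strand (53 bases before it), and MCM3 at chr6:52284743-52284992 on the minus strand (174 bases before it).
HELLS: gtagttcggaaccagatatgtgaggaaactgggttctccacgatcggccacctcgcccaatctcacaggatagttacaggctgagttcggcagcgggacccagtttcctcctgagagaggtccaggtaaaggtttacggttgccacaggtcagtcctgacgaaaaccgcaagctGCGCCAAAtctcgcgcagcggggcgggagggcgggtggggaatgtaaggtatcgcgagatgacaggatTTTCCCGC
GINS2: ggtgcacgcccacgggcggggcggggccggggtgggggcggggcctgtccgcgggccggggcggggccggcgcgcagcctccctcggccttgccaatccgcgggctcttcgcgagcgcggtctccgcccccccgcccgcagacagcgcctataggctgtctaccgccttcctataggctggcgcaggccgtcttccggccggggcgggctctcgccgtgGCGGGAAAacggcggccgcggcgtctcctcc
POLA2: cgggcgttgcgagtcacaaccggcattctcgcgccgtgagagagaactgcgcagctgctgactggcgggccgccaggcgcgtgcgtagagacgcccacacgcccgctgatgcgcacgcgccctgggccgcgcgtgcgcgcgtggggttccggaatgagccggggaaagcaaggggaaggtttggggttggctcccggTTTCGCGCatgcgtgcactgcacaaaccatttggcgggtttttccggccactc
MCM3: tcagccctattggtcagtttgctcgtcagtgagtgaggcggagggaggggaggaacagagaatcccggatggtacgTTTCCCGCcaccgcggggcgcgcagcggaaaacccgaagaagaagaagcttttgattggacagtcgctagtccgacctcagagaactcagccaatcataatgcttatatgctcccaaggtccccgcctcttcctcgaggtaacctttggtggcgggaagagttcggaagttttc
Among windows of the genes that were lower in LRMN than in the controls, 4 of 11 held the letters, and among windows of the other genes used, 9 of 31. The 11 windows are of 10 genes, since GINS4, POLD3, DSCC1 and FAM111B, also lower in LRMN, had no window. A match is a description of these letters and not of a bound factor. Gene spans given in the results that follow are from GENCODE, whose starts can differ from those of RefSeq. The HELLS and GINS2 windows lie inside the GENCODE spans of those genes (HELLS chr10:94501434-94613905). The POLA2 window overlaps the POLA2 span (chr11:65261762-65305589), and the MCM3 window overlaps the MCM3 span.

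The first comparison was among the 16 sites themselves, without the controls. Of the 37 genes, 19 differed between sites at an adjusted p under 0.05 in edgeR's quasi-likelihood F test (51.4%), against 29.8% of all features tested. By step of replication, helicase activation had 6 of 7 (GINS1, GINS2, GINS3, GINS4, MCM10 and CDC7, with CDC45 the exception), and the checkpoint and repair genes had 5 of 5 (CLSPN, MSH6, EXO1, BRCA1 and FAM111B). Licensing had 4 of 9 (CDC6, MCM3, MCM4 and MCM6), DNA synthesis 3 of 9 (POLA2, POLD3 and DSCC1) and chromatin 1 of 4 (HELLS). Of the 3 G1/S regulators (CCNE1, CCNE2 and DTL) 0 passed, also in DESeq2, and 0 had an unadjusted p under 0.05. Shares by role were not tested against each other, and without VROH 2, CRMI 1 and SRMI 3 licensing had 8 of 9, helicase activation 6 of 7, DNA synthesis 5 of 9, chromatin 1 of 4, the G1/S regulators 1 of 3 and checkpoint and repair 5 of 5. Level bears on these counts: 13 of the 20 genes with a mean of at least 10 CPM over all libraries were called, against 6 of the 17 below it, and over all features the shares were 33.3% and 24.4%. Without VROH 2, CRMI 1 and SRMI 3 the same 19 genes and 7 more (CCNE2, CDT1, MCM5, MCM7, ORC6, POLE2 and PRIM1) differed, 26 of 37, against 49.8% of all features.

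**Figure D1:**
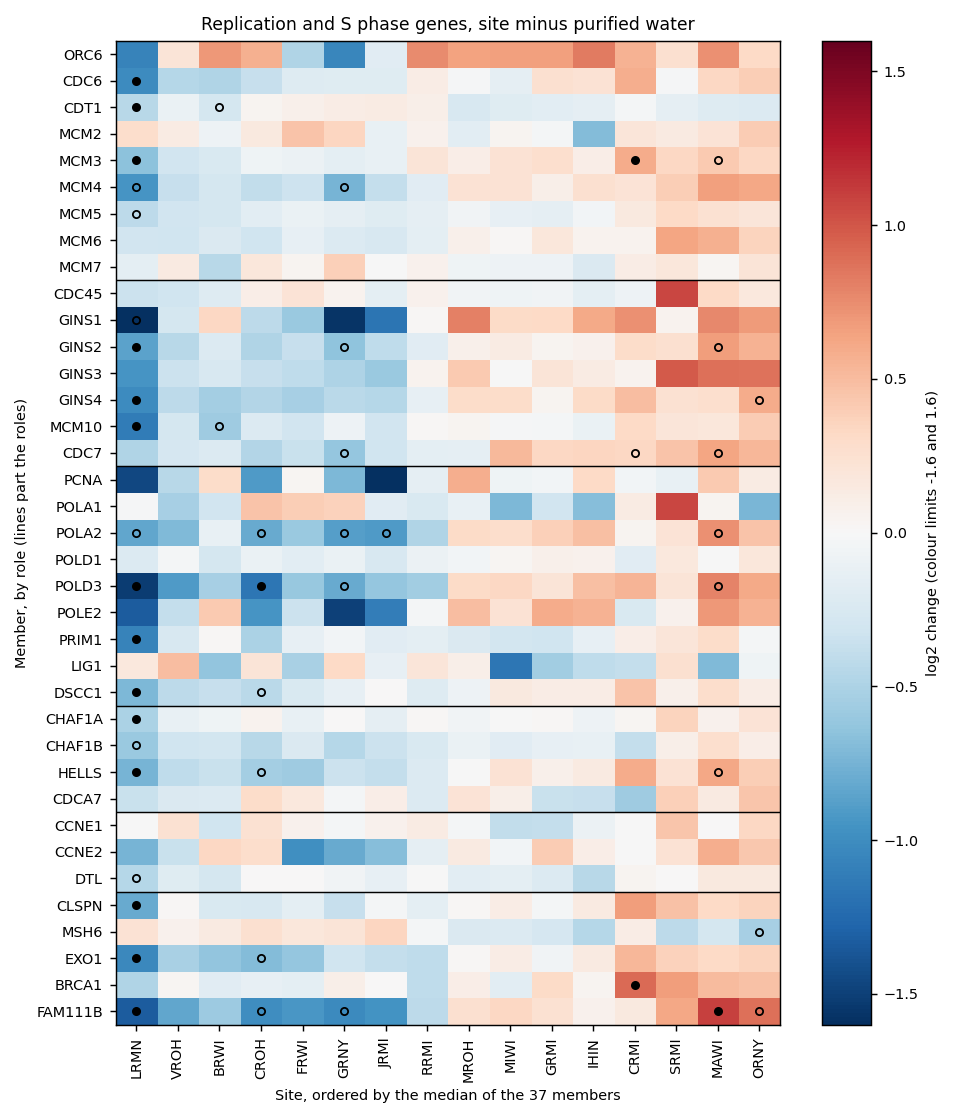
Log2 change against purified water for the 37 genes (vertical axis, by role) at the 16 sites (horizontal axis, ordered by the median of the 37). Filled circles mark an adjusted p under 0.05 with all libraries, and open circles mark genes that reached it only without VROH 2, CRMI 1 and SRMI 3. LRMN holds 14 filled circles, CRMI 2, and CROH and MAWI 1 each.

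LRMN was the lowest site for 15 of the 19 genes that differed between sites. The highest site was MAWI for 7 of them, CRMI for 6, ORNY and SRMI for 2 each, and JRMI and MROH for 1 each. These ranks use all libraries. SRMI 3 was the highest SRMI library for GINS3 and MCM6, the 2 of SRMI (16.9 and 40.1 CPM). CRMI 1 was the highest CRMI library for the 6 of CRMI (CDC6, MCM3, DSCC1, CLSPN, EXO1 and BRCA1). MCM6 did not differ between sites without SRMI 3 alone (adjusted p = 0.0755, edgeR F test) and did without all 3 libraries (0.000882). The median log2 change of the 37 genes against the controls ran from -0.72 in LRMN to 0.36 in ORNY, while the median of all features stayed near 0 (-0.01 in LRMN and 0.00 in ORNY). Next to LRMN on the low side were VROH (-0.31), BRWI (-0.26) and CROH (-0.26), and on the high side MAWI (0.32) and SRMI (0.24) lay beside ORNY. Without the 3 libraries CRMI moved from 0.13 to 0.32, level with MAWI (0.32), and SRMI to 0.20. These medians share the 8 control libraries.

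POLD3 had the strongest evidence of a difference between sites (F = 12.6, adjusted p = 6.38e-11, edgeR). It encodes an accessory subunit of DNA polymerase delta, the lagging strand polymerase, and lies at chr11:74493851-74669117 (GRCh38, plus strand). Its level was 9.79 CPM in the lowest control, 11.35 at the median and 18.7 in the highest. The 4 LRMN libraries held 4.20, 2.03, 8.53 and 3.36 CPM, and the 4 CROH libraries held 7.64, 4.91, 5.07 and 5.15 CPM. Both sites lay wholly below the controls. In BRWI (7.98 to 9.34 CPM), FRWI (7.29 to 9.52), GRNY (5.72 to 8.74) and JRMI (7.90 to 8.53) every library was also below the lowest control, and in VROH the 3 libraries other than VROH 2 held 6.52 to 6.97 CPM. Over all features, the share with every library below every control was 4.89% in LRMN, 4.75% in CROH, 1.47% in BRWI, 1.94% in FRWI and in JRMI, 1.45% in GRNY and 2.22% in VROH. At the other end, MAWI held 30.6, 14.6, 23.9 and 19.8 CPM and ORNY 25.9, 13.5, 26.5 and 10.96 CPM, both overlapping the controls. The change passed the threshold in LRMN (log2 change -1.52 ± 0.26 SE, adjusted p = 0.000108) and CROH (-1.15 ± 0.25, 0.00648), and in both it was below 0.05 in each of 71 fits that left out 1 library.

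FAM111B, a member of a family of serine proteases linked to replication, came second (F = 10.6, adjusted p = 1.36e-09, edgeR). It lies at chr11:59107185-59127410 on the plus strand. Controls ran from 8.20 to 22.5 CPM with a median of 11.95. LRMN held 5.54, 3.70, 7.55 and 4.77 CPM, all below the controls, and so did GRNY with 7.16, 5.49, 7.73 and 5.72 CPM. MAWI held 47.4, 14.0, 33.2 and 20.7 CPM, with libraries 1 and 3 above the highest control and libraries 2 and 4 within the control range. ORNY had the same split, at 33.8, 16.6, 33.7 and 14.4 CPM. FAM111B fell in LRMN (-1.33 ± 0.31, adjusted p = 0.00539) and rose in MAWI (1.09 ± 0.26, adjusted p = 0.0368). The rise in MAWI did not pass without MAWI 1 (0.76, adjusted p = 0.514).

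**Figure D2:**
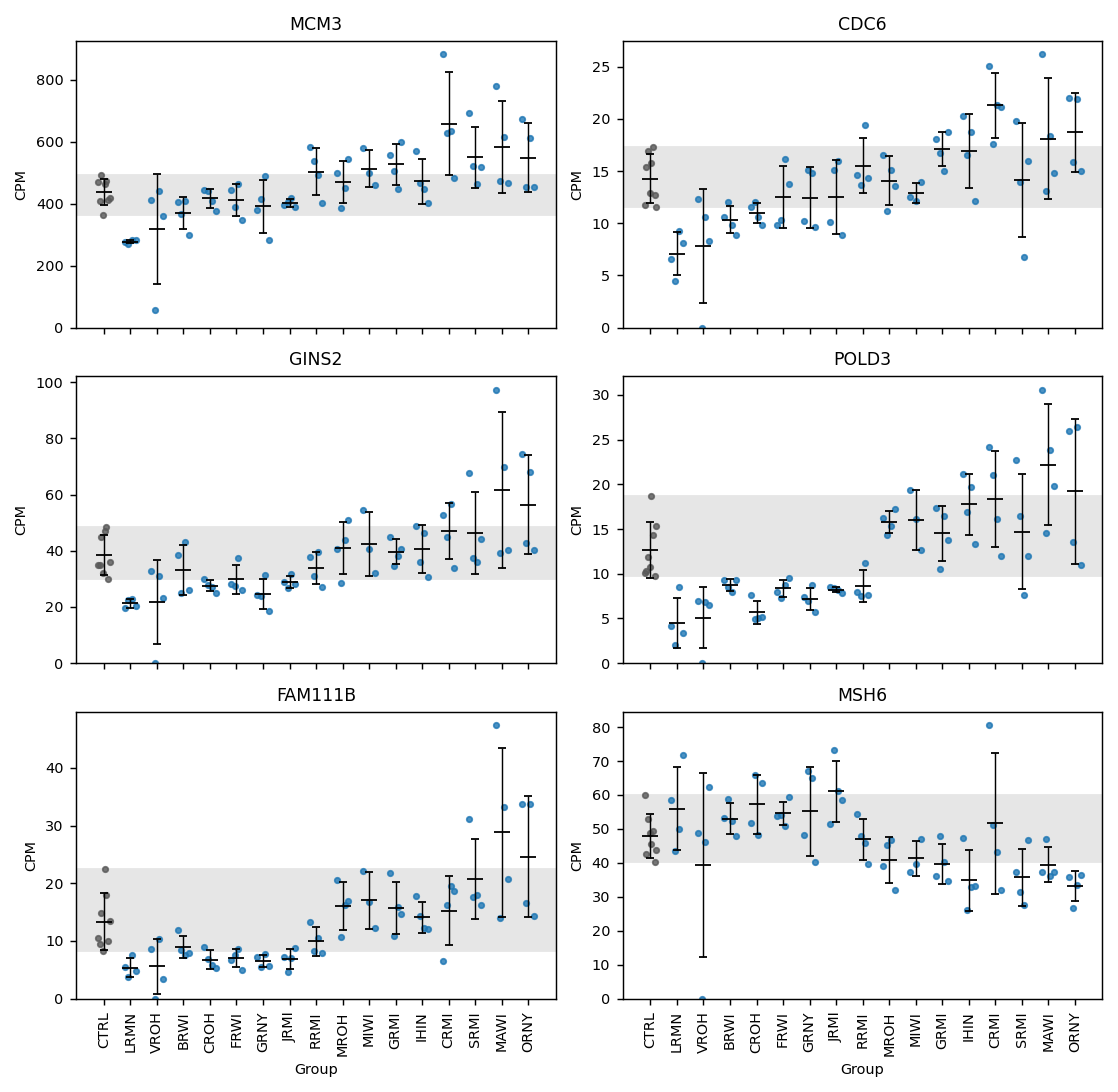
Level (CPM, vertical axes starting at 0) of 6 genes in each library of the controls and the 16 sites (horizontal axis, ordered as in the heat map). Points are libraries, bars are mean and SD, and the grey band is the range of the 8 controls. All 4 LRMN libraries lie below the band for MCM3, CDC6, GINS2, POLD3 and FAM111B, while MSH6 is lowest in ORNY.

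MSH6, a mismatch repair protein that binds mismatches left behind the fork, ordered the sites differently (F = 3.95, adjusted p = 0.000666, edgeR). It was the 1 gene of the 19 that was lowest in ORNY, where it held 35.7, 26.7, 33.4 and 36.5 CPM, every library below the lowest control at 40.3 CPM, as were 1.4% of all features there. LRMN held 58.6, 43.6, 49.9 and 71.8 CPM, which overlapped the controls (40.3 to 60.1). The highest site was JRMI at 51.4 to 73.2 CPM. Its change in ORNY was -0.54 ± 0.18 (adjusted p = 0.227), and without the 3 libraries that stood apart -0.52 ± 0.15 (adjusted p = 0.0268).

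The second comparison set each site against purified water. In LRMN 14 of the 37 genes were lower and 0 were higher (37.8% lower; 0 higher also in DESeq2), against 2.81% of all features lower and 2.2% higher. Values were below 0 for 34 of the 37, the exceptions being MCM2, LIG1 and MSH6, none of which passed (adjusted p = 0.676, 0.836 and 0.47 in edgeR). For 12 of the 37 genes every LRMN library lay below every control, against 4.89% of all features. Within single libraries, 31 to 35 of the 37 genes lay below their control mean in LRMN, against 5 to 31 in the controls. Depth in LRMN was 4471243 to 7770913 counts, below every control, and the summed hepatocyte markers were 167169 to 186417 CPM in LRMN and 118325 to 168892 CPM in the controls. The summed immune markers were 2809 to 3906 CPM in LRMN and 1537 to 2157 CPM in the controls, of which LYZ made 1643 CPM on average in the controls, where PTPRC was at 0. The part of depth or of these markers in the result was not tested. Leaving out LRMN 2 gave 7 called genes in place of 14, and leaving out LRMN 4 gave 8.

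Among the licensing genes, CDC6, CDT1 and MCM3 fell in LRMN. CDC6, the ATPase that loads the MCM ring, lies at chr17:40287633-40304657. It held 11.6 to 17.3 CPM in the controls (median 14.2) and 6.55, 4.44, 9.26 and 8.13 CPM in LRMN, with no overlap. Its log2 change was -1.01 ± 0.21 (adjusted p = 0.00134, edgeR). MCM3, a subunit of the ring, lies at chr6:52264009-52284881. It held 364 to 492 CPM in the controls (median 441) and 276, 271, 283 and 282 CPM in LRMN, a narrow set below every control (-0.66 ± 0.18, adjusted p = 0.0187). CDT1, the partner of CDC6 that is destroyed once S phase begins, held 157 to 190 CPM in the controls and 113, 125, 142 and 130 CPM in LRMN (-0.45 ± 0.14, adjusted p = 0.0465). The CDT1 call is the least firm of these, since it was lost in 34 of the 71 fits that left out 1 library. Not every subunit of the ring passed: MCM4 was at -0.94 ± 0.32 (adjusted p = 0.0731), MCM5 at -0.42 ± 0.18 (0.158), MCM6 at -0.31 ± 0.25 (0.494), MCM7 at -0.16 ± 0.17 (0.627) and MCM2 at 0.28 ± 0.33 (0.676). MCM4 and MCM5 passed without the 3 libraries (adjusted p = 0.00292 and 0.0312). MCM2 held only 1.24 to 2.94 CPM in the controls. The ORC6 value, -1.07 ± 0.62 (0.335), rests on about 1 CPM.

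Of the 7 helicase activators, MCM10, GINS2 and GINS4 fell in LRMN. MCM10, which helps to open the loaded helicase and lies at chr10:13161554-13211104, held 31.8 to 46.2 CPM in the controls (median 35.7) and 17.8, 19.2, 14.4 and 19.6 CPM in LRMN (-1.12 ± 0.18, adjusted p = 6.29e-05, edgeR). GINS2 (chr16:85676198-85690073) held 29.8 to 48.3 CPM in the controls (median 35.5) and 19.7, 22.4, 22.9 and 20.5 CPM in LRMN (-0.85 ± 0.21, adjusted p = 0.00941). GINS4 held 9.25 to 11.7 CPM in the controls (median 9.84) and 5.54, 4.81, 4.87 and 5.05 CPM in LRMN (-1.01 ± 0.22, adjusted p = 0.00258). In all 3 genes the groups did not overlap, and these calls, with those of CDC6, POLD3 and EXO1, held in each of the 71 fits that left out 1 library. The other GINS subunits were lower in value without passing: GINS1 at -1.67 ± 0.66 (0.124), with 0 counts in LRMN 4, and GINS3 at -0.94 ± 0.41 (0.177). CDC7 at -0.48 ± 0.33 (0.414) and CDC45 at -0.35 ± 0.35 (0.605) did not pass either.

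Of the DNA synthesis genes, POLD3, PRIM1 and DSCC1 fell. PRIM1, the catalytic subunit of primase, held 2.91 to 4.38 CPM in the controls and 2.18, 1.11, 1.95 and 1.54 CPM in LRMN (-1.07 ± 0.27, adjusted p = 0.0123, edgeR). DSCC1, a subunit of a loader of the sliding clamp that also serves sister chromatid cohesion, held 48.3 to 71.8 CPM in the controls and 35.8, 30.7, 40.4 and 37.4 CPM in LRMN (-0.72 ± 0.17, adjusted p = 0.00587). PCNA, the sliding clamp itself, was measured at only 0.481 to 3.85 CPM in the controls and at 0.840, 0.555, 1.95 and 0 CPM in LRMN, so its value of -1.45 ± 0.73 (adjusted p = 0.252) has a wide error and the groups overlapped. POLA2 (-0.83 ± 0.31, 0.105) did not pass with all libraries and did without the 3 (0.00912). POLE2 at -1.34 ± 0.65 (0.236), POLD1 at -0.22 ± 0.20 (0.57), POLA1 at -0.02 ± 0.48 (0.991) and LIG1 at 0.17 ± 0.36 (0.836) did not pass.

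HELLS, a chromatin remodeller of dividing cells, held 20.6 to 37.4 CPM in the controls (median 27.1) and 18.6, 12.2, 19.7 and 16.0 CPM in LRMN (-0.74 ± 0.20, adjusted p = 0.0186, edgeR). CHAF1A, the large subunit of the assembly factor that puts histones on new DNA, fell by 0.51 on the log2 scale (adjusted p = 0.0463), although LRMN 2 at 16.5 CPM lay inside the control range of 13.6 to 18.6 CPM. That call was lost in 12 of the 71 fits. Among the checkpoint and repair genes, EXO1, the exonuclease of mismatch repair, held 10.1 to 17.3 CPM in the controls and 6.38, 5.92, 5.12 and 8.13 CPM in LRMN (-1.03 ± 0.25, adjusted p = 0.00678). CLSPN, the adaptor that links stalled forks to the kinase CHEK1, held 2.99 to 8.13 CPM in the controls and 3.86, 2.40, 2.19 and 2.80 CPM in LRMN, with overlap (-0.80 ± 0.24, adjusted p = 0.0339). Without LRMN 2 the calls of MCM3, PRIM1, HELLS, DSCC1, FAM111B, CDT1 and CLSPN were lost, with adjusted p = 0.0782, 0.0987, 0.141, 0.0545, 0.0527, 0.143 and 0.15. BRCA1, a homologous recombination protein, was at -0.48 ± 0.28 (adjusted p = 0.33).

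The G1/S regulators did not pass in LRMN. CCNE1, a cyclin that drives entry into S phase, was at -0.01 ± 0.23 (adjusted p = 0.992), with 3.22 to 5.26 CPM in the controls and 3.53, 5.36, 3.41 and 4.07 CPM in LRMN. The related cyclin gene CCNE2 was at -0.74 ± 0.47 (0.387) on 0.555 to 2.41 CPM in the controls. DTL, which directs CDT1 to destruction, was at -0.45 ± 0.17 (0.103) and passed without the 3 libraries (0.0368). Of the 3, 1 had an unadjusted p under 0.05. Without VROH 2, CRMI 1 and SRMI 3, 20 of the 37 genes (54.1%) were lower in LRMN, against 8.2% of all features. They held the same 14 and CHAF1B, DTL, GINS1, MCM4, MCM5 and POLA2.

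In CRMI 2 of the 37 genes (5.41%) rose, MCM3 and BRCA1, against 2.02% of all features higher. MCM3 held 885, 630, 636 and 484 CPM there, 3 of the 4 libraries above the highest control (0.59 ± 0.17, adjusted p = 0.0345, edgeR). BRCA1 held 9.48, 4.08, 7.48 and 4.46 CPM against 1.87 to 5.60 CPM in the controls (0.91 ± 0.25, adjusted p = 0.0276). Neither passed without CRMI 1 (MCM3 0.43, adjusted p = 0.179; BRCA1 0.63, adjusted p = 0.241). CRMI 1 did not lie on 1 side of its site: it was highest for MCM3, MCM10 (83.0 CPM) and DSCC1 (119 CPM) and lowest for MCM4 (5.34 CPM), MCM6 (4.54 CPM) and POLA2 (1.20 CPM), and ORC6, PCNA, POLE2 and CCNE2 were at 0 in it. The same 4 genes were at 0 in GRNY 2. Without the 3 libraries MCM3 (0.41 ± 0.14, adjusted p = 0.0465, edgeR) and CDC7 (0.82 ± 0.21, 0.0113) were higher in CRMI. These are 5.41% of the 37 genes, against 2.96% of all features.

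In CROH 1 of the 37 genes (2.70%) fell, POLD3, against 1.31% of all features lower. In MAWI 1 (2.70%) rose, FAM111B, against 0.202% higher. Without the 3 libraries, CROH had 6 lower genes (16.2%), which were POLD3, DSCC1, EXO1, FAM111B, HELLS and POLA2, against 5.93% of all features. EXO1 in CROH held 7.27, 8.73, 7.60 and 9.01 CPM and DSCC1 held 44.4, 44.0, 46.2 and 42.7 CPM, both below every control. MAWI then had 7 higher genes (18.9%), against 2.15% of all features. They were FAM111B (1.09), POLD3 (0.80), POLA2 (0.73), GINS2 (0.67), CDC7 (0.63), HELLS (0.62) and MCM3 (0.42, log2 changes). GRNY had 6 lower genes (CDC7, FAM111B, GINS2, MCM4, POLA2 and POLD3), 16.2% of the 37, against 4.81%. Still without the 3 libraries, in ORNY GINS4 (0.61) and FAM111B (0.90) rose (5.41%), against 1.45% of all features. MSH6 fell there (2.70%), against 2.65%. CDT1 and MCM10 fell in BRWI (5.41%), against 0.521%, and POLA2 fell in JRMI (2.70%), against 1.13%. The log2 changes at these sites barely moved when the 3 libraries were left out: POLD3 in GRNY was -0.80 ± 0.24 with them (adjusted p = 0.154) and -0.80 ± 0.22 without them (0.02).

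Many of the high values in MAWI and ORNY were in libraries 1 and 3. Of the 37 genes, 25, 4, 20 and 5 lay above the highest control in MAWI 1 to 4 (26.28%, 18.47%, 20.83% and 15.45% of all features) and 23, 4, 23 and 4 in ORNY 1 to 4 (20.05%, 16.51%, 20.18% and 11.03%). The summed level of the 37 genes was 2026, 1252, 1594 and 1295 CPM in MAWI 1 to 4 and 1739, 1216, 1679 and 1270 CPM in ORNY 1 to 4, against 1087 to 1394 CPM in the controls and 811 to 877 CPM in LRMN. GINS2 held 97.2, 39.0, 69.8 and 40.2 CPM in MAWI and 74.6, 42.6, 68.2 and 40.2 CPM in ORNY, where the control range ended at 48.3 CPM. For GINS2 libraries 2 and 4 of both sites thus lay in the control range. GINS3 was above every control in all 4 MAWI libraries (10.7, 7.66, 9.06 and 6.36 CPM), as were 2.14% of all features. Libraries 1 and 3 were again the highest, and MAWI 4 barely passed the highest control (6.355 against 6.352 CPM). In ORNY GINS3 held 10.4, 6.23, 10.4 and 5.88 CPM, with libraries 2 and 4 in the control range. GINS4 was highest in MAWI 4 (14.4 CPM), while in ORNY it held 19.9, 12.8, 17.7 and 11.2 CPM.

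With all libraries, the 12 other sites had 0 called genes in edgeR, and DESeq2 called 0 there except for CDC45 in SRMI. At an unadjusted p under 0.05 (edgeR), counts of the 37 genes are given with the percent of all features in brackets. They were 10 in ORNY (9.72%), 9 in GRNY (14.2%) and in SRMI (13.0%), 8 in BRWI (6.58%) and 7 in JRMI (8.8%). There were 6 in FRWI (10.7%) and in VROH (7.73%), 3 in IHIN (8.22%), 1 in MIWI (3.04%) and in RRMI (7.41%), and 0 in GRMI (6.77%) and MROH (3.84%). At an adjusted p under 0.05, edgeR called of all features 0.202% in ORNY, 0.144% in GRNY and in BRWI, 1.14% in SRMI, 0.13% in JRMI and in VROH, 0.072% in FRWI, 0.0288% in IHIN, 0.849% in RRMI, 0.0432% in GRMI and 0.0% in MIWI and MROH. CDC45 and POLA1 were at 1.07 in SRMI, and without the 3 libraries that stood apart the highest value of the 37 genes there was 0.67. The average of the 16 sites was not called against the controls for any of the 37 genes: 0 were called, against 0.0576% of all features, 0 had an unadjusted p under 0.05, against 2.33%, and DESeq2 called 0. Values ran from -0.25 to 0.26 with a median of -0.08.

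The third comparison set LRMN against CRMI, 2 sites that share no control library. The pair was chosen with earlier results of these data known, so it describes the size of the gap. In LRMN 17 of the 37 genes were lower than in CRMI (45.9%) and 0 were higher (18 and 0 in DESeq2), against 10.7% of all features lower and 10.3% higher. The gap was -2.06 ± 0.29 for POLD3 (adjusted p = 7.05e-07, edgeR), -1.59 ± 0.24 for CDC6 (1.76e-06) and -1.43 ± 0.21 for MCM10 (1.18e-06). CDC6 held 25.1, 17.6, 21.3 and 21.2 CPM in CRMI, each above the highest control (3.5% of all features in CRMI) and above every LRMN library. HELLS held 52.6, 38.3, 39.4 and 36.5 CPM in CRMI and differed by -1.33 ± 0.23 (2.81e-05). BRCA1, which did not pass in LRMN against the controls, differed by -1.39 ± 0.31 (0.00109). MCM2 (F = 0.839, adjusted p = 0.786), PCNA (F = 1.25, 0.434), CCNE1 (F = 1.35, 0.363) and CCNE2 (F = 1.62, 0.211) passed neither here nor among sites with all libraries. CCNE2 passed both without the 3 libraries (0.018 among sites and 0.0375 here). Without the 3 libraries, 24 of the 37 genes were lower in LRMN (64.9%, against 16.8% of all features) and 0 were higher (18.5% of all features). Of the 24, 16 were among the 17, with CHAF1A lost.

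**Figure D3:**
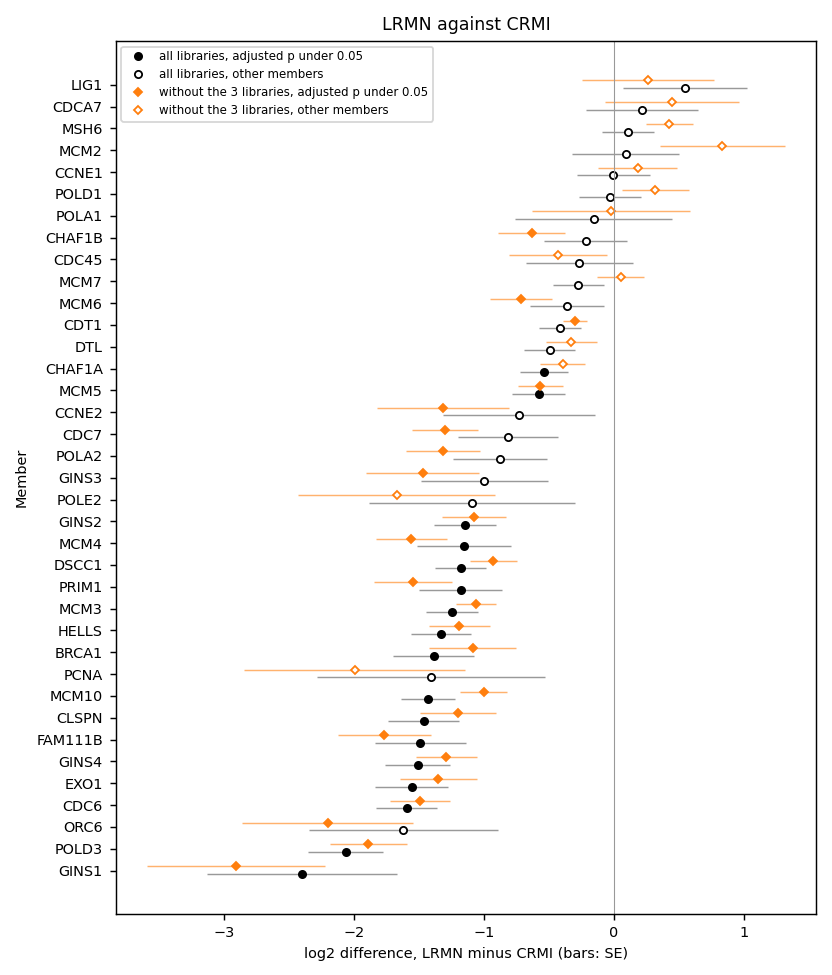
Log2 difference LRMN minus CRMI (horizontal axis, bars are SE) for the 37 genes (vertical axis). Black circles use all libraries and orange diamonds leave out VROH 2, CRMI 1 and SRMI 3, and filled symbols have an adjusted p under 0.05. POLD3 and CDC6 lie below -1 in both fits, and LIG1, CDCA7, MSH6 and MCM2 lie above 0.

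Other genes of the same pathway and of mitosis were read from lists of 58 and 52 genes, of which 53 and 45 were tested. Of the 53 other replication and G1/S genes, 6 (11.3%) were lower in LRMN, against 2.81% of all features. Between sites 17 differed (32.1%, against 29.8% of all features). Without VROH 2, CRMI 1 and SRMI 3, 52 were tested. In LRMN 15 of them were lower (28.8%, against 8.2% of all features) and 3 were higher (5.77%, against 9.36%). Between sites 28 of the 52 differed (53.8%, against 49.8%). With all libraries the 6 were ASF1B, a histone chaperone (-0.90), the helicases BLM (-1.03) and BRIP1 (-1.31), the checkpoint kinase CHEK1 (-0.56), E2F8, a repressor of the E2F family (-1.21), and FBXO5, an inhibitor of the anaphase-promoting complex (-0.77). ASF1B averaged 63.7 ± 13.1 CPM in the controls (SD, n = 8), 34.0 ± 5.06 CPM in LRMN and 92.6 ± 16.5 CPM in MAWI (n = 4 each). GMNN, the inhibitor of CDT1, and HAT1, an acetyltransferase of new histones, differed between sites (F = 5.15 and 4.95) but not in LRMN against the controls (-0.36 and -0.47, adjusted p = 0.269 and 0.0834 in edgeR), and of these HAT1 passed in LRMN without the 3 libraries (-0.47, 0.00569). HAT1 rose in CRMI (0.53, adjusted p = 0.0414) and did not pass there without the 3 libraries (0.216). CDKN1A, the cell cycle inhibitor p21, was at -0.05 ± 0.40 in LRMN (adjusted p = 0.971) on 1.47 CPM in the controls, and CCND1 was below the filter at 0.613 CPM.

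Of the 45 mitosis genes, 3 (6.67%) were lower in LRMN (CDCA3 -0.74, DLGAP5 -0.56 and NCAPH -0.53), against 2.81% of all features. Without the 3 libraries 8 of the 45 (17.8%) were lower, against 8.2% of all features. With all libraries the median of the 45 was -0.29, beside -0.72 for the 37 replication genes. The difference of these medians was not tested. MKI67, a proliferation marker, averaged 61.6 ± 7.97 CPM in the controls and 62.2 ± 4.99 CPM in LRMN (0.01 ± 0.18, adjusted p = 0.984, edgeR). CDK1, the mitotic kinase, averaged 202 ± 33.9 and 134 ± 53.3 CPM (-0.59 ± 0.43, 0.445). Among sites, 16 of the 45 differed (35.6%, against 29.8% of all features), and 25 (55.6%, against 49.8%) without the 3 libraries. Those with the smallest p with all libraries were CDCA3 (F = 5.82), PRC1 (5.52), PLK1 (5.31), NCAPH (3.47), ECT2 (3.24) and MKI67 (3.16). PLK1, a kinase of mitotic entry, averaged 23.0 ± 6.00 CPM in the controls, 33.3 ± 15.6 in LRMN, 36.1 ± 13.6 in CROH and 13.0 ± 0.757 in MAWI. Between LRMN and CRMI, 9 of the 45 mitosis genes were lower in LRMN (10.7% of all features), and 2 were higher (10.3%), PLK1 (1.01, adjusted p = 0.0357) and CCNF (1.35, 0.016). The value of PLK1 in LRMN against the controls was 0.53 (adjusted p = 0.304). Of the genes with the smallest p among sites, PLK1, PRC1, ECT2 and MKI67 averaged more in LRMN and less in MAWI than in the controls. CDCA3 and NCAPH ran the other way. CDCA3 averaged 7.49 CPM in the controls, 4.50 in LRMN and 10.8 in MAWI, and NCAPH 17.4, 12.1 and 19.2 CPM.

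**Figure D4:**
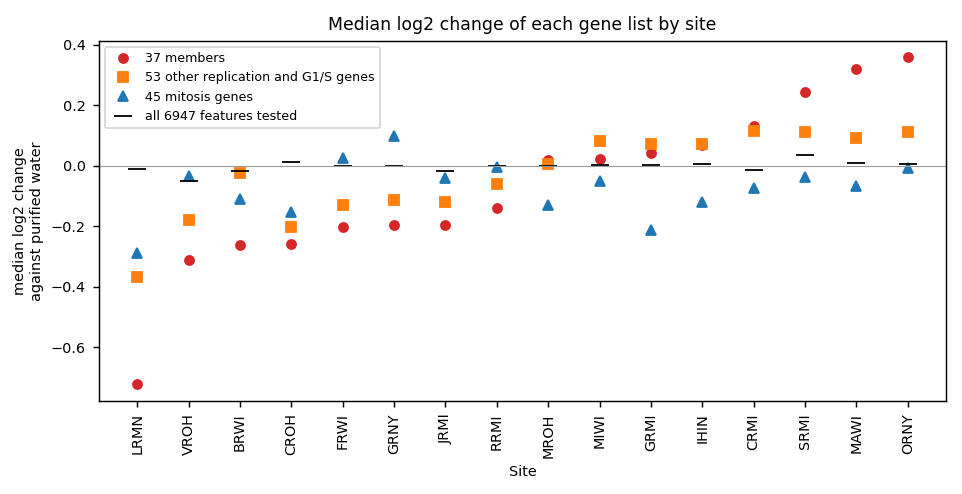
Median log2 change against purified water (vertical axis) at the 16 sites (horizontal axis) for the 37 genes, 53 other replication and G1/S genes, 45 mitosis genes and all 6947 features. In LRMN the medians are -0.72, -0.37, -0.29 and -0.01, and in ORNY the 37 genes are at 0.36 and the mitosis genes at -0.01.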

How the data were processed

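RNA of HepG2 dishes was assayed by TempO-Seq, in which probe pairs bind chosen transcripts. The submitters' processing notes name Salmon and GRCh38, without versions or roles beyond that. The authors' deposited table holds expected counts: low values are whole multiples of a step of 0.9925 to 1.004 (a median of 93.5% of low values within 0.02), so values were rounded to whole counts. Of the entries 31012 were complete and 1 was incomplete, and that 1 was left out. The numbers of 4 columns (all of MIWI and the first of GRMI) do not match the sample titles, so these columns were assigned to their site only.

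Counts were fitted in R 4.3.3 with edgeR 4.0.16 (glmQLFit and glmQLFTest, TMM, filterByExpr with a minimum count of 10): 6947 features, 71 libraries and 17 group means, leaving 54 degrees of freedom, with a common BCV (the biological variation between libraries) of 0.257. P-values were adjusted by Benjamini-Hochberg over all features of each contrast, and called means an adjusted p under 0.05. SE is the log2 change over the square root of F. CPM are TMM-adjusted. Scripts were tested on simulated data. Genes, gene lists and the LRMN and CRMI pair were chosen with earlier results of these data known. Named genes were those called at 2 or more sites, the 8 with the smallest F test p, a fixed list (CDC6, CDT1, MCM2, MCM3, PCNA, GINS2, E2F1, CCNE1 and CCNE2) and the extremes of each role. In the 2 other lists they were the 6 with the smallest F test p and CDKN1A, CCND1, MKI67 and CDK1. Further genes are named where a count of calls is spelled out, and these and the libraries split in MAWI and ORNY were chosen after their values were seen. Alternatives were RLE size factors, DESeq2 1.42.0, no filter, a replicate block, each site fitted with the controls alone and each library left out. Leaving out VROH 2, CRMI 1 and SRMI 3 together was added after seeing the data. Promoters are from RefSeq and gene spans are from GENCODE.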

Additional observations from a re-analysis of the deposited data

Results flagged for a closer look

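A sample far from the others was found in 2 of 114 groups of the named genes by Dixon's test, where chance alone gives about 1 in 20. GINS4 in CROH 3 was at 6.76 CPM, while the other CROH libraries held 7.64 to 7.73 CPM. POLD3 in CROH 1 was at 7.64 CPM, while the others held 4.91 to 5.15 CPM, and all 4 lay below every control.

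LRMN and CRMI differed from each other in the direct contrast (edgeR, adjusted p under 0.05) for 17 genes, with log2 differences, LRMN minus CRMI, of CDC6 (-1.59), MCM3 (-1.24), MCM4 (-1.16), MCM5 (-0.58), GINS1 (-2.40), GINS2 (-1.14), GINS4 (-1.51), MCM10 (-1.43), POLD3 (-2.06), PRIM1 (-1.18), DSCC1 (-1.18), CHAF1A (-0.54), HELLS (-1.33), CLSPN (-1.47), EXO1 (-1.56), BRCA1 (-1.39) and FAM111B (-1.49). Leaving out CRMI 3 moved GINS1 to -1.50 (adjusted p = 0.185) and MCM4 to -0.86 (0.104), and CHAF1A passed neither without CRMI 1 (-0.42, 0.113) nor without all 3 libraries that stood apart.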

How the results depend on the processing

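Of 37 genes, 19 differed between sites and 35 calls were made in single contrasts. RLE size factors and DESeq2 kept all of them, and no direction reversed under any alternative run. The summed calls over the 16 sites (18) were 11 with no filter on low counts. They were 10 with the replicate block, which leaves out MIWI. They were 35 with each site fitted with the controls alone and 47 without VROH 2, CRMI 1 and SRMI 3. With no filter CRMI and MAWI had 0. With DESeq2 CROH had 2, MAWI 3 and SRMI 1. With the site and controls alone BRWI had 1, CRMI 1, CROH 8, MAWI 3 and ORNY 3. Without the 3 libraries BRWI had 2, CROH 6, GRNY 6, JRMI 1, MAWI 7 and ORNY 3. The cause of these moves was not tested.

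With the replicate block LRMN had 6 called genes, CRMI 1, CROH 0, MAWI 2 and ORNY 1. That fit holds fewer libraries, since only columns matched to a sample numbered 1 to 4 enter. All of MIWI, the first column of GRMI and the controls numbered above 4 are left out. The same libraries without the block gave 3 in LRMN and 4 over the sites that remain, against 10 with it. Deviations of same-numbered libraries of different sites had a median r of 0.0132 over 421 pairs, against -0.00328 over 1265 pairs with different numbers. Of these pairs, 131 and 383 were above 0.1. A median does not show whether some sites were paired by number, so pairing of the dishes was not settled.

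Leaving out 1 library at a time gave 18 to 27 genes for the comparison among sites, 11 to 24 over all sites, 7 to 16 in LRMN, 0 to 5 in CRMI, 1 to 3 in CROH, 0 to 3 in MAWI, 0 to 2 in GRNY and SRMI, 0 to 1 in ORNY, 0 to 0 in BRWI and for the mean of sites, and 13 to 21 for LRMN minus CRMI. The 5 in CRMI came without SRMI 3, and 0 came without CRMI 3 or CTRL 8. ORC6, POLA1 and LIG1 lie near 1 CPM in the controls, and CCNE2 (1.83 CPM) and PCNA (2.07 CPM) are also low. How far depth limits their tests was not tested.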
